A study of Mus musculus with 6 samples.

Results

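The 10 genes described here encode the molecules through which a B cell receives help from T cells, or competes for it. They were Cd80, Cd86, Icosl, Cd274, Pdcd1lg2, Cd40, Tnfrsf13c, Tnfrsf14, Fas and Cd83, taken by name out of 21896 protein-coding genes in the RefSeq table for GRCm38.p6, and the rule used no measured value, though the list was drawn up with earlier results of these data known. Every CpG position with at least 10 reads in all 6 libraries was used if it lay in a gene span or within 10 kb of either end. This gave 542 of the 1463044 covered positions of the genome, 225 in the spans and 317 in the flanks, out of 781 listed near these genes in any library. No position near them was listed in all 3 libraries of one genotype and in none of the other.

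The assay was enhanced reduced representation bisulfite sequencing (ERRBS): the enzyme MspI cuts DNA at CCGG sites, and the fragments are treated with bisulfite and sequenced. The samples were germinal centre B cells from the spleens of C57BL/6 mice, 3 libraries of the genotype TET2 Knock-Out (Tet2 KO below) and 3 of the wild-type genotype (Tet2 WT below). Tet2 encodes an enzyme that oxidises 5-methylcytosine, and the comparison asks how methylation differs without it. The deletion strategy, the age of the mice, their immunisation, the sort, and whether replicates were single or pooled mice, were not given in the sources used here. Bisulfite reads 5-methylcytosine and 5-hydroxymethylcytosine alike, so each level below is the sum of both. In a pool of cells, an intermediate level cannot tell a methylated share of the cells apart from partial methylation in each cell.

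In a germinal centre, B cells with better receptors present more antigen to follicular helper T cells, and the help they win in return decides which of them survive and divide. CD40 on the B cell receives the main activating signal from its ligand on the T cell, and the B7 family ligands CD80, CD86 and ICOS ligand engage CD28 and ICOS. PD-L1 and PD-L2 (Cd274 and Pdcd1lg2) and HVEM (Tnfrsf14) can instead restrain T cells through PD-1 and BTLA. The BAFF receptor (Tnfrsf13c) sustains B cells and Fas removes them.

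Coverage added over the CpG positions listed in each library came to 195582108, 183417223 and 180397494 in Tet2 KO replicates 1, 2 and 3. In Tet2 WT replicates 1, 2 and 3 it came to 178955262, 174375503 and 203863392. A read over several CpGs counts once for each, so these are not numbers of reads. Mean coverage of the positions near the 10 genes was 121 to 133 reads in Tet2 KO libraries and 114 to 141 in Tet2 WT libraries. At Tet2 itself, 6 positions were listed in all 3 Tet2 WT libraries and in none of the Tet2 KO libraries, while 108 positions were covered in all 6. RNA was not measured, so the cell type could be checked on DNA alone. A gene end here is 1 kb on either side of the gene start for Cd22, Klf1 and Epor. For Cd79b, Blk, Cd4, Csf1r and Adgre1 it is the annotated end with more covered CpGs, which need not be the start. Among the B-cell markers the gene ends of Cd79b and Cd22 were at 0.225 and 3.97% in Tet2 KO and 0.225 and 3.01% in Tet2 WT, but that of Blk was at 85.3% and 84.5%. Only Cd4 was covered among 6 T-cell markers, at 0.402% in Tet2 KO and 0.546% in Tet2 WT. Of 5 myeloid markers Csf1r stood at 89.1% and 81.4% and Adgre1 at 94.7% and 93.8%, in Tet2 KO and Tet2 WT. Of 4 erythroid markers Klf1 stood at 0.630% and 0.289% and Epor at 63.1% and 45.2%, in Tet2 KO and Tet2 WT. The part of other cells in the results was not tested.

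RefSeq promoter sequences, from 250 bases before to 50 bases after the gene start, were at hand for 7 of the 10 genes, and covered CpGs fell in those of Icosl and Cd80. The sequences of these 2 promoters are given because they hold covered CpGs beside a RefSeq start of a costimulatory ligand gene. That of Cd80 lies inside the annotated gene span, which begins at 38457430, while the promoter gives the start as 38458933. Both run 5′ to 3′ on the plus strand of GRCm38.p6, the Icosl promoter at chr10:78069118-78069417 and the Cd80 promoter at chr16:38458683-38458982. Capitals mark the CpGs covered in all 6 libraries.
Icosl: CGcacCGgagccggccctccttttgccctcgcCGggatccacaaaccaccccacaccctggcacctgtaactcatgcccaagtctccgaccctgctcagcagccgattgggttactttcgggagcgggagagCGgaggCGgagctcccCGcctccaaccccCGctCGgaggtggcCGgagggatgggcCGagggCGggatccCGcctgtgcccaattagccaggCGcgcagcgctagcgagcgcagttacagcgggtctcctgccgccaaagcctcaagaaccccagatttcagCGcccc
Cd80: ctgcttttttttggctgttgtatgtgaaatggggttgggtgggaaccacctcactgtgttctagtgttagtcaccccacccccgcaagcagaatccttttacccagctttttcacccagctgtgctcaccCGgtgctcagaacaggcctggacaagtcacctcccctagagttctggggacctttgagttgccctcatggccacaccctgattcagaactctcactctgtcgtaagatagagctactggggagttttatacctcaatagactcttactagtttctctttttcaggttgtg

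The Icosl promoter is rich in CpGs, with 26 sites against a median of 7 over 32851 RefSeq promoters of the same 300 bases, and 14 of its sites were covered, at 15 positions counting strands. Their mean level was 0.116% in Tet2 KO and 0.128% in Tet2 WT, and no position exceeded 1.6% in a Tet2 KO library or 1.80% in a Tet2 WT library. It holds 4 MspI sites (CCGG, which reads the same on both strands), a motif present in 52.8% of all promoters in the table. The Cd80 promoter has 3 CpG sites, and the covered one lies in its only CCGG, 120 bp before the gene start. That CpG read 15.4, 9.38 and 20% in Tet2 KO replicates 1, 2 and 3, of 13, 32 and 20 reads. In Tet2 WT replicates 1, 2 and 3 it read 1.92, 0 and 0%, of 52, 19 and 19 reads, and a count of 0 in 19 reads allows up to 15.8%. Every Tet2 KO library stood above every Tet2 WT library, and the difference of 14.3 points did not pass (adjusted p = 0.758). The promoters of Cd274, Pdcd1lg2, Tnfrsf13c, Tnfrsf14 and Fas held no covered CpG, and of these that of Fas alone has a CCGG.

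Methylation levels differed widely between the genes. Of the 542 positions, 329 had a mean below 5%, of which 154 lay near Tnfrsf13c and 80 near Icosl, against 2 of 26 near Cd86 and 5 of 37 near Pdcd1lg2. Most of those near Tnfrsf13c lay in its flank, in a tile of 142 CpGs within the neighbouring gene Shisa8. Its span held 14 of its 160 covered positions. A mean above 95% was seen at 45 of the 542 positions, and the 168 between these bounds were tested. Reads were also added over 1 kb tiles with at least 3 covered CpGs, which gave 51 tiles, of which 18 lay below 5%, 3 above 95% and 30 in the tested range. A feature was called when its adjusted p was under 0.05 and the group means were at least 10 percentage points apart. All adjusted p-values below come from a quasi-binomial test of methylated and unmethylated reads with dispersions moderated by limma's method, adjusted by Benjamini-Hochberg over every tested feature of that kind in the genome.

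**Figure D1:**
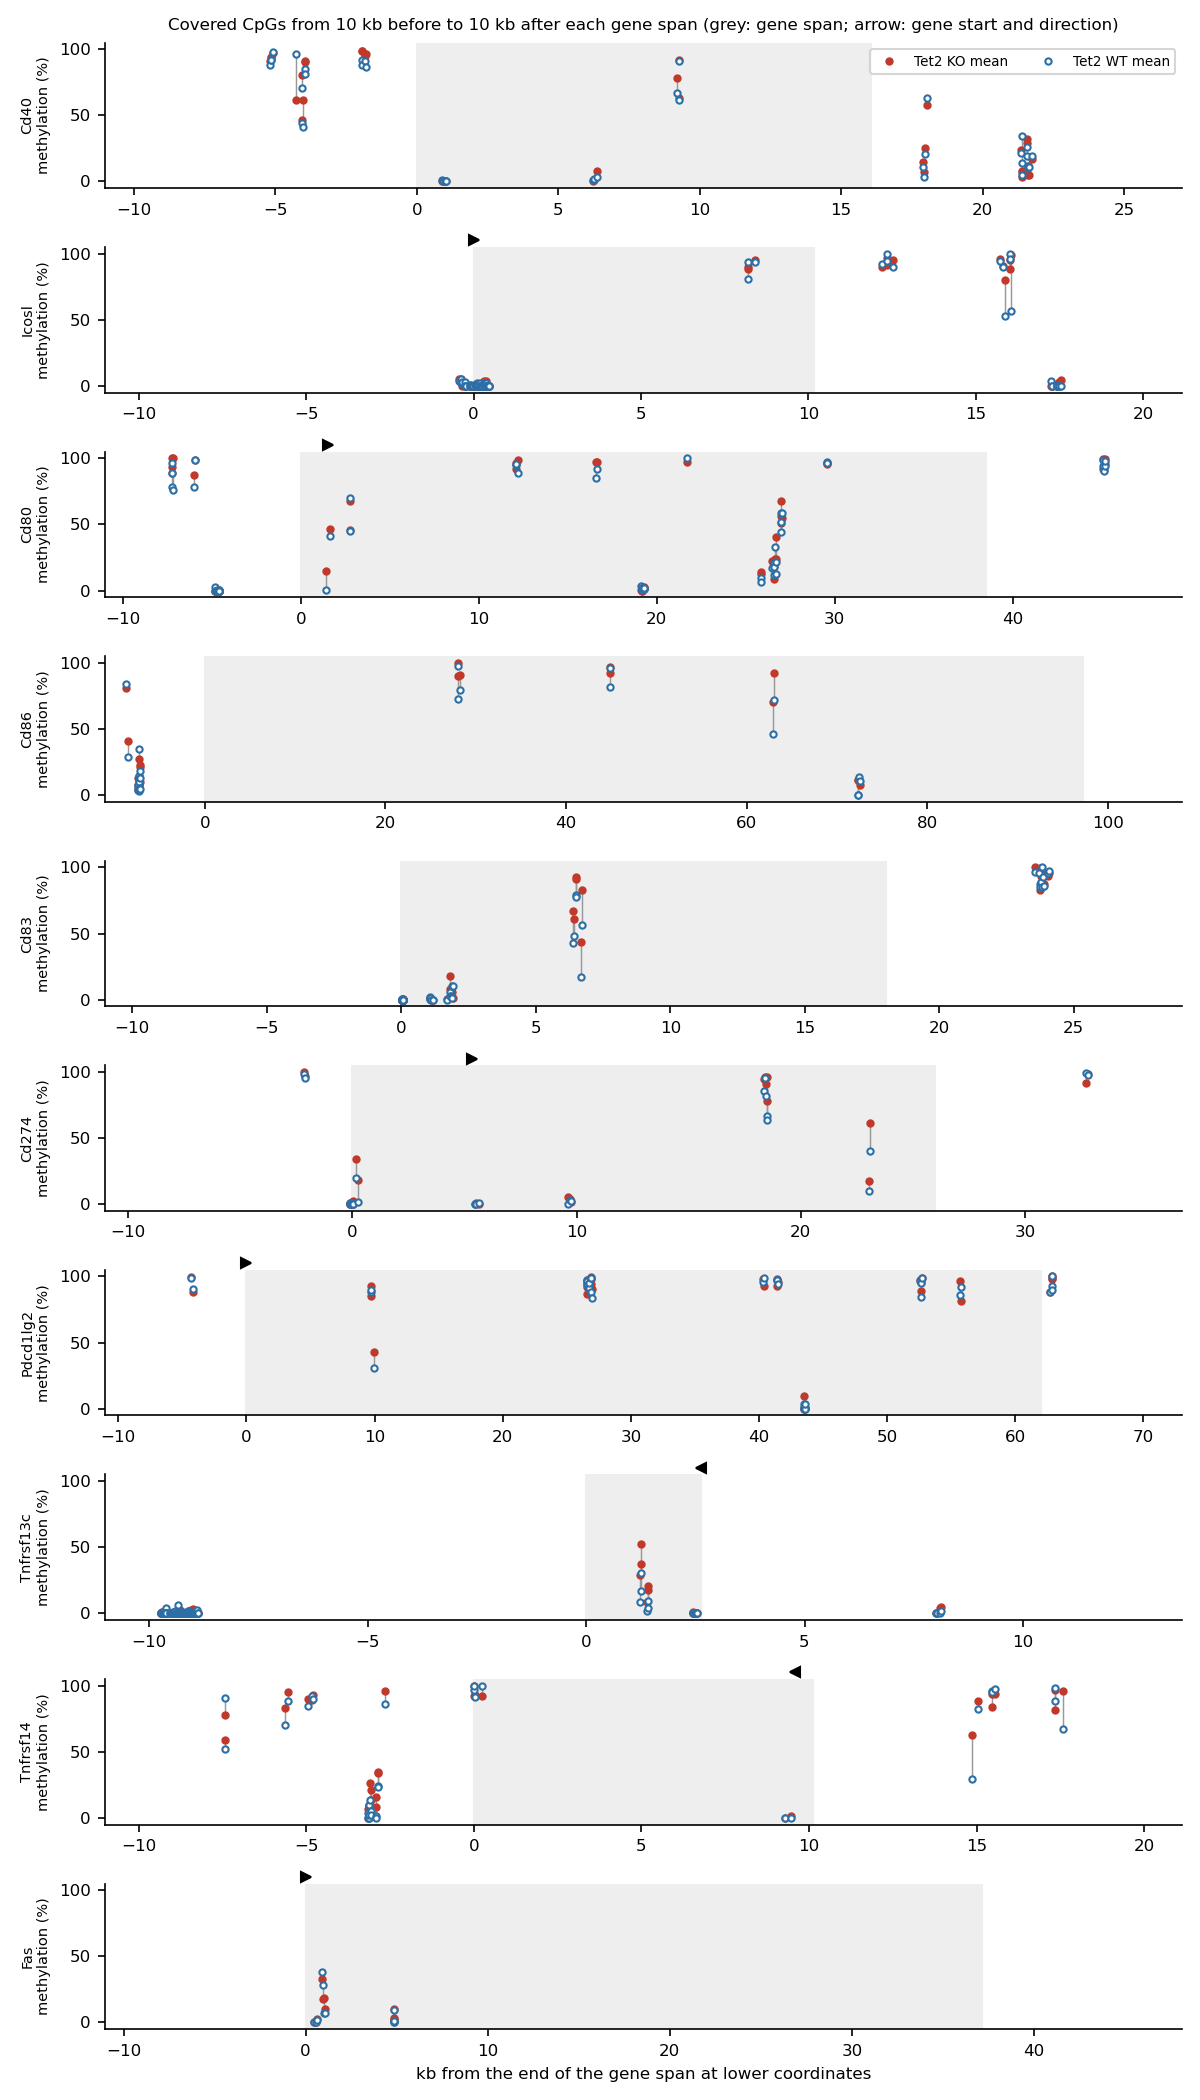
Mean methylation (%) of every covered CpG near each gene, as filled red points for Tet2 KO and open blue points for Tet2 WT, joined by a line, against the distance in kb from the end of the gene span at lower coordinates. Grey marks the gene span and arrows the gene start and direction where RefSeq promoters gave them. Levels near 0 cluster at CpG-dense stretches, and the 8 tested CpGs of Cd274 and all 6 of Tnfrsf13c have the red point above the blue.

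No tile near the 10 genes was called in either direction, where 0.685% of the 83114 tiles tested genome-wide were called higher in Tet2 KO and 0.00241% lower. Limma on log2 ratios called 0 tiles in the whole genome, these 30 included. Of the 55739 tested tiles within 10 kb of any protein-coding gene, 0.809% were called higher. At an unadjusted p under 0.05, 8 of the 30 tiles were higher in Tet2 KO and 0 lower, where 10.1% of all tiles were higher and 1.39% lower, and 12.0% of tiles near genes were higher. In 12 of the 30 tiles every Tet2 KO library lay above every Tet2 WT library, and in none did every Tet2 KO library lie below, where the shares over all tiles were 12.7% and 3.54% and that near genes was 14.5% above. The Tet2 KO mean exceeded the Tet2 WT mean in 27 of 30 tiles, or 90%, where 64.0% of all tiles and 67.6% of those near genes did so. The median difference was 3.24 points over the 30 tiles, 1.28 over all tested tiles and 1.55 over tiles near genes. The 14 tiles in gene spans all had the higher mean in Tet2 KO, and 13 of the 16 in flanks did. These counts describe tiles that share libraries, and no test over the list was made.

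Of the 168 single CpGs tested, 2 were called, both higher in Tet2 KO, 1 in Cd274 and 1 upstream of Tnfrsf14, and 0 were called lower, while limma on log2 ratios called 0 in the whole genome. Over the genome 0.284% of 525213 tested positions were called higher and 0.0105% lower. At an unadjusted p under 0.05, 21 positions near the genes were higher and 1 was lower, against 6.47% and 2.23% of all positions. Every Tet2 KO library was above every Tet2 WT library at 32 positions and below at 5, where all positions gave 8.30% and 4.00%. The Tet2 KO mean was the higher one at 124 of 168 positions, or 73.8%, against 58.9% of all. The mean over the 168 positions was 55.4, 57.0 and 55.7% in Tet2 KO replicates 1, 2 and 3, against 49.2, 49.2 and 52.8% in Tet2 WT replicates 1, 2 and 3. The same mean over all tested positions was 68.0, 68.3 and 67.7% in Tet2 KO and 64.7, 66.4 and 66.6% in Tet2 WT, so in both sets the 3 Tet2 KO libraries lay closer together than the 3 Tet2 WT libraries. Within tiles, the SD between replicates was lower in Tet2 KO for 21 of the 30 tiles, or 70%, and for 66.5% of all tested tiles.

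**Figure D2:**
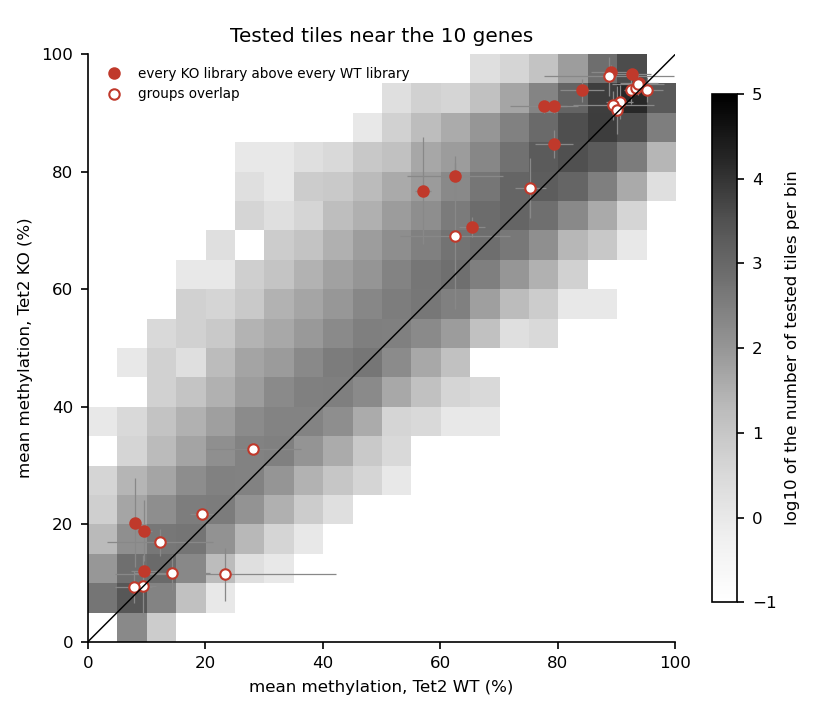
Mean methylation (%) of the 30 tested tiles near the 10 genes in Tet2 KO (vertical axis) against Tet2 WT (horizontal axis), with SD bars over 3 libraries each and the line of equality. Filled points are the 12 tiles in which every Tet2 KO library lay above every Tet2 WT library, open points those whose groups overlap, and grey squares give the number of tested tiles of the whole genome per bin on a log10 scale. Of the 30 points 27 lie above the line.

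No gene was called when its CpGs were added up. With reads added from 10 kb before to 10 kb after each gene, 9 of the 10 windows were in the tested range, and 0 were called by this test, the share over 14779 windows being 0%. The windows of Cd274 and Tnfrsf14 reached an unadjusted p under 0.05, both higher in Tet2 KO, as did 12.4% of all windows. Gene spans alone gave 0 calls of 9 tested, with 0.00844% called higher over 11849 genes, and limma on log2 ratios gave 0 as well for windows and spans. Those of Cd274, Cd86 and Tnfrsf13c reached an unadjusted p under 0.05, all higher in Tet2 KO, where 11.1% of all genes did. Within 1 kb of the gene start, or of the CpG-denser end where the strand was unknown, 5 genes had enough covered CpGs, and only Fas had a mean above 5%. That end was not called, by this test or by limma on log2 ratios, and had an unadjusted p above 0.05, where 0.0618% of 3238 gene ends were called higher.

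**Figure D3:**
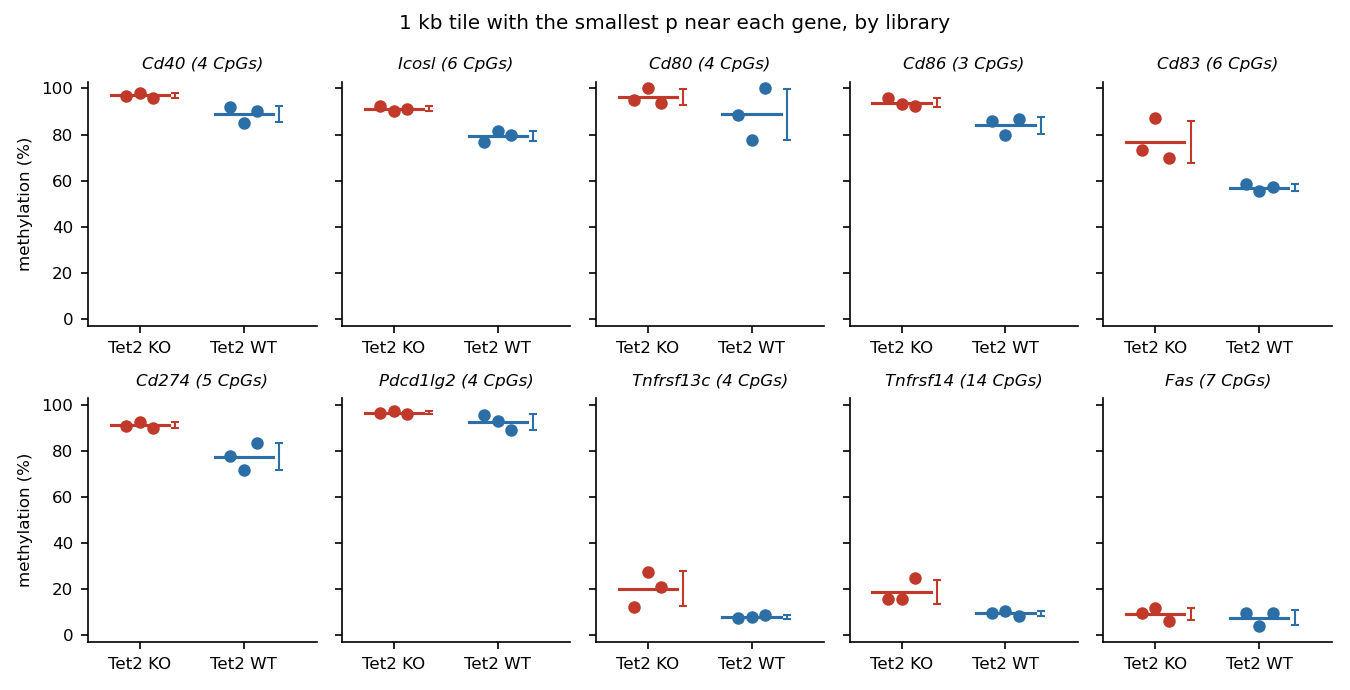
Methylation (%) in each library of the tested 1 kb tile with the smallest p near each of the 10 genes, Tet2 KO in red and Tet2 WT in blue. Points are libraries, horizontal lines means and bars SD over 3 libraries. The groups overlap for Cd80 and Fas and are apart for the other 8 genes, none of which was called. Each tile was picked by its p, which favours tiles whose groups are apart. Every Tet2 KO library was above every Tet2 WT library in 12 of the 30 tested tiles near these genes. The share over all tested tiles was 12.7%.

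The B7 ligands of CD28 are Cd80 and Cd86, which give activated B cells their power to costimulate T cells. Cd86 (chromosome 16, 36568956 to 36666158) had its smallest tile p inside the gene, in a tile of 3 CpGs at 36597001 to 36598000. It read 96.0, 93.2 and 92.4% in Tet2 KO replicates 1, 2 and 3 and 85.9, 79.8 and 86.6% in Tet2 WT replicates 1, 2 and 3. The groups did not overlap, and the difference of 9.80 points did not pass (adjusted p = 0.304). The Cd86 CpG with the smallest p, at 36631858, read 65.8, 68.4 and 76.5% in Tet2 KO against 28.1, 50 and 60.5% in Tet2 WT (adjusted p = 0.451). Over the 11 covered CpGs of the gene span Cd86 averaged 65.5% ± 3.0 in Tet2 KO and 54.0% ± 3.53 in Tet2 WT (SD, n = 3 each; adjusted p = 0.407), with every Tet2 KO library above every Tet2 WT library. Its tile with the most CpGs, 13 at 36561001 to 36562000, lies in Casr, the neighbouring calcium receptor gene, and read 12.3, 12.1 and 11.7% in Tet2 KO against 11.1, 7.03 and 10.7% in Tet2 WT (adjusted p = 0.618).

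Cd80 (chromosome 16, 38457430 to 38495958) showed no tile whose groups stood apart. The smallest tile p was in the flank, at 38450001 to 38451000 within the neighbouring gene Adprh, where Tet2 KO read 95, 100 and 93.9% and Tet2 WT read 88.5, 77.8 and 100% (4 CpGs; adjusted p = 0.665). The CpG-densest Cd80 tile also lies in Adprh, with 23 CpGs at 38452001 to 38453000, and averaged 0.0287% in Tet2 KO and 0.152% in Tet2 WT, below the tested range. Inside Cd80, a tile at 38484001 to 38485000 with 10 CpGs in the pseudogene Ck-ps3, chosen after its values were seen, read 32.1, 34.2 and 32.2% in Tet2 KO against 18.9, 31.8 and 33.7% in Tet2 WT. Only Tet2 WT replicate 1 lay apart there, and without it the difference dropped to 0.101 points, against 4.73 with it (adjusted p = 0.998 and 0.730).

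Icosl encodes the ICOS ligand, which B cells show to follicular helper T cells when they make contact. Its span lies on chromosome 10 from 78069368 to 78079525, on the plus strand. The tile over its start, 78069001 to 78070000, held 68 covered CpGs and read 0.273, 0.443 and 0.165% in Tet2 KO and 0.332, 0.288 and 0.470% in Tet2 WT. Like the promoter sequence above, the start was thus near 0 in every library of both genotypes.

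The contrast at Icosl lay beyond the other end of the gene. A tile of 6 CpGs at 78085001 to 78086000, which begins 5476 bp past the annotated end, read 92.4, 90.2 and 90.9% in Tet2 KO replicates 1, 2 and 3 and 76.8, 81.4 and 79.7% in Tet2 WT replicates 1, 2 and 3. All Tet2 KO libraries were above all Tet2 WT libraries by a margin larger than either group's spread, at 91.2% ± 1.11 and 79.3% ± 2.33 (SD, n = 3 each), but the difference of 11.9 points fell short of the call (adjusted p = 0.0735). It was carried by 2 of the 6 CpGs. The position 78085425, 16057 bp downstream of the gene start, read 98.7, 100 and 97.7% in Tet2 KO against 59.7, 60.4 and 50% in Tet2 WT, from 22 to 77 reads (adjusted p = 0.0674). The position 78085227, chosen after its values were seen, read 79.8, 79.5 and 81.8% in Tet2 KO against 43.1, 68.8 and 46.2% in Tet2 WT (adjusted p = 0.139). Without Tet2 WT replicate 2 both positions would be called, at adjusted p = 0.0455 and 0.0219, and the first also without Tet2 WT replicate 3 (adjusted p = 0.0464). The other 4 CpGs of the tile differed by -7.78 to 1.30 points.

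Cd274 encodes PD-L1, a ligand that restrains T cells through PD-1. It held the smallest adjusted p among the 10 genes, for tiles and for single CpGs. Its span on chromosome 19 runs from 29362107 to 29388095 on the plus strand. The RefSeq promoter places the start at 29367438, next to the gene Plgrkt, whose span runs from 29348599 to 29367292. One CpG in the gene, at 29380611 and 13173 bp downstream of the start, read 98.4, 96.1 and 94.2% in Tet2 KO replicates 1, 2 and 3. In Tet2 WT replicates 1, 2 and 3 it read 70.1, 48.2 and 73.0%, with 85 to 154 reads per library. This position was nearly fully methylated in every Tet2 KO library and partly methylated in every Tet2 WT library, and it rose by 32.4 points (96.2% ± 2.13 in Tet2 KO and 63.8% ± 13.6 in Tet2 WT, SD, n = 3 each; adjusted p = 0.0141). The call was lost without Tet2 KO replicate 1, Tet2 KO replicate 2 or Tet2 WT replicate 2, at adjusted p = 0.132, 0.0961 and 0.0578, and the difference was then 31.3, 32.5 and 24.7 points. With an unmoderated dispersion, with limma on log2 ratios and with no filter on the level its adjusted p was 0.578, 0.674 and 0.463.

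The tile around that CpG, 29380001 to 29381000, also overlaps the lncRNA gene Gm36043 and held 5 CpGs. It read 91.0, 92.5 and 90.2% in Tet2 KO against 77.8, 71.7 and 83.3% in Tet2 WT. The groups did not overlap, and the difference of 13.6 points missed the call (adjusted p = 0.0641), which it would pass without Tet2 WT replicate 3 (adjusted p = 0.0327). The other 4 CpGs of the tile were 0.735 to 11.2 points higher in the Tet2 KO mean. A further position of the gene at 29385198, chosen after its values were seen, read 59.6, 67.0 and 56.7% in Tet2 KO against 21.8, 42.5 and 56.0% in Tet2 WT (adjusted p = 0.356), and its 21.0 points dropped to 11.9 points without Tet2 WT replicate 1.

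All 8 tested CpGs of Cd274 had the higher mean in Tet2 KO, with a median difference of 12.7 points against 5.17 over the 168 positions. Over the 18 covered CpGs of its span Cd274 read 30.9, 37.4 and 29.2% in Tet2 KO against 17.9, 18.2 and 18.5% in Tet2 WT (adjusted p = 0.217). The difference there was 14.3 points with reads added and 7.07 with CpGs weighted equally. The tile over the start, 29367001 to 29368000, was low in both genotypes. It stood at 0.422% ± 0.168 in Tet2 KO and 0.700% ± 0.797 in Tet2 WT (SD, n = 3 each; 3 CpGs). None of its covered CpGs lay in the promoter sequence. That tile also overlaps Plgrkt. The tile with the most CpGs, 9 at 29362001 to 29363000 inside Plgrkt, read 2.75, 3.36 and 3.04% in Tet2 KO against 0.706, 0.390 and 2.26% in Tet2 WT, apart but below the tested range.

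Pdcd1lg2 encodes PD-L2, the other PD-1 ligand, and lies on the same chromosome from 29410919 to 29472927. Levels within the gene were mixed in both genotypes. With reads added over 31 covered CpGs, its span stood at 70.7% in Tet2 KO and 64.4% in Tet2 WT (adjusted p = 0.542). The difference of 6.29 points became 0.816 with CpGs weighted equally, at 74.5% in Tet2 KO and 73.7% in Tet2 WT. A tile of 6 CpGs at 29454001 to 29455000 averaged 2.12% in Tet2 KO and 1.45% in Tet2 WT. The Pdcd1lg2 tile with the most CpGs, 11 at 29437001 to 29438000, read 94.7, 94.9 and 93.6% in Tet2 KO against 93.1, 92.5 and 94.1% in Tet2 WT (adjusted p = 0.804). The smallest tile p was 74 bp past the annotated end, at 29473001 to 29474000, with 96.3, 97.6 and 96.2% in Tet2 KO against 95.7, 93.1 and 89.1% in Tet2 WT (adjusted p = 0.630). No single CpG of Pdcd1lg2 reached an unadjusted p under 0.05 among 16 tested, and at none did the groups stand apart.

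Cd40 encodes the receptor for the CD40 ligand of helper T cells. It lies on chromosome 2 from 165055614 to 165071654 and had 38 covered CpGs, 10 of them in the span. Its smallest tile p was in the flank, 1614 bp from the span, at 165053001 to 165054000. That tile read 96.9, 98.2 and 96.0% in Tet2 KO against 91.8, 85.2 and 90.2% in Tet2 WT (4 CpGs; adjusted p = 0.246). The groups stood apart by 7.99 points in the mean without passing. The opposite order was seen in the other flank, in a tile at 165076001 to 165077000 chosen after its values were seen, with 9.46, 16.7 and 8.33% in Tet2 KO against 3.95, 24.7 and 41.5% in Tet2 WT (3 CpGs; adjusted p = 0.761). Its groups overlapped, and the difference of -11.9 points was -2.83 without Tet2 WT replicate 3 and -21.6 without Tet2 WT replicate 1. The Cd40 tile with the most CpGs, 7 at 165077001 to 165078000, averaged 11.8% ± 3.01 in Tet2 KO and 14.4% ± 6.47 in Tet2 WT (SD, n = 3 each; adjusted p = 0.883), a direction that turned without Tet2 WT replicate 1 (0.941 points).

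At one Cd40 position the Tet2 KO libraries were all below. The CpG at 165051337, 4277 bp from the span, read 27.3, 72.7 and 85.4% in Tet2 KO against 93.8, 100 and 94.9% in Tet2 WT, from 22 to 55 reads. The Tet2 KO values were widely spread, and the difference of -34.4 points did not pass (adjusted p = 0.510). Without Tet2 KO replicate 1, the lowest library, it was -17.2 points. The other 4 positions with every Tet2 KO library below every Tet2 WT library were 1 more near Cd40, 2 in Cd83 and 1 near Tnfrsf14. Over the Cd40 span the levels were 16.3% ± 2.28 in Tet2 KO and 16.5% ± 5.23 in Tet2 WT (SD, n = 3 each; adjusted p = 0.992).

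Tnfrsf13c encodes the BAFF receptor, on which mature B cells depend for survival. It is a short gene on the minus strand of chromosome 15, from 82221742 to 82224380. The tile over its start, 82224001 to 82225000, read 0.0770, 0 and 0.309% in Tet2 KO and 0, 0 and 0.129% in Tet2 WT. Read counts added over its 8 CpGs were 1635 to 3090 per library. Downstream of the start the levels were higher and differed. The tile 82223001 to 82224000, which spans 380 to 1379 bp downstream of the start, read 12.2, 27.4 and 21.3% in Tet2 KO replicates 1, 2 and 3 and 7.39, 8.01 and 8.81% in Tet2 WT replicates 1, 2 and 3 (4 CpGs). The lowest Tet2 KO library was above the highest Tet2 WT library, and the Tet2 KO values were the more spread, at 20.3% ± 7.63 against 8.07% ± 0.710 in Tet2 WT (SD, n = 3 each). The difference of 12.2 points did not pass (adjusted p = 0.105).

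All 6 tested CpGs of Tnfrsf13c lay within 1215 to 1397 bp of the start, and all had the higher mean in Tet2 KO, with a median difference of 17.1 points. The one with the smallest p, at 82222983, read 21.2, 29.0 and 36.5% in Tet2 KO against 1.87, 15.2 and 8.78% in Tet2 WT (adjusted p = 0.242). Neighbouring positions can share reads, so they are not independent. The 142 CpGs of the tile 82212001 to 82213000, in the neighbouring gene Shisa8, averaged 0.236% in Tet2 KO and 0.196% in Tet2 WT. The whole window of Tnfrsf13c averaged 1.18% in Tet2 KO and 0.587% in Tet2 WT, below the tested range.

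Tnfrsf14 encodes HVEM, which binds BTLA on T cells. It lies on the minus strand of chromosome 4, from 154918487 to 154928620, with 35 covered CpGs, 30 of them in the flanks. One of these was called. The CpG at 154933350, 5273 bp upstream of the gene start, read 45.1, 75.0 and 68.2% in Tet2 KO replicates 1, 2 and 3 and 20.8, 31.2 and 35.4% in Tet2 WT replicates 1, 2 and 3, with 76 to 201 reads per library. The lowest Tet2 KO library was above the highest Tet2 WT library, and the position rose by 33.6 points (62.8% ± 15.7 in Tet2 KO and 29.1% ± 7.52 in Tet2 WT, SD, n = 3 each; adjusted p = 0.0400). The call was lost without Tet2 KO replicate 2, Tet2 KO replicate 3 or Tet2 WT replicate 1, at adjusted p = 0.210, 0.557 and 0.209, and the difference was then 27.5, 30.9 and 29.5 points. With an unmoderated dispersion, with limma on log2 ratios and with no filter on the level its adjusted p was 0.671, 0.752 and 0.635.

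In the tile around this CpG, 154933001 to 154934000, Tet2 KO read 76.3, 83.1 and 78.5% and Tet2 WT read 68.3, 53.2 and 66.0% (4 CpGs; adjusted p = 0.217). The other 3 CpGs of that tile differed by 5.33, -2.29 and -11.2 points, and with CpGs weighted equally the tile's 16.8 points became 6.37. A second contrast lay past the 3′ end, in a tile of 14 CpGs at 154915001 to 154916000, whose near edge is 2487 bp beyond the span. There Tet2 KO read 15.8, 15.9 and 24.9% and Tet2 WT read 9.80, 10.7 and 8.24% (adjusted p = 0.127), without overlap. Inside the span only 5 CpGs were covered, and there the order was the opposite, at 16.1, 19.9 and 21.0% in Tet2 KO against 27.6, 28.3 and 22.6% in Tet2 WT (adjusted p = 0.700). That difference was -7.19 points with reads added and -2.69 with CpGs weighted equally. With equal weights the groups overlapped, with Tet2 KO replicate 3 at 58.7% and Tet2 WT replicate 2 at 54.6%.

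**Figure D4:**
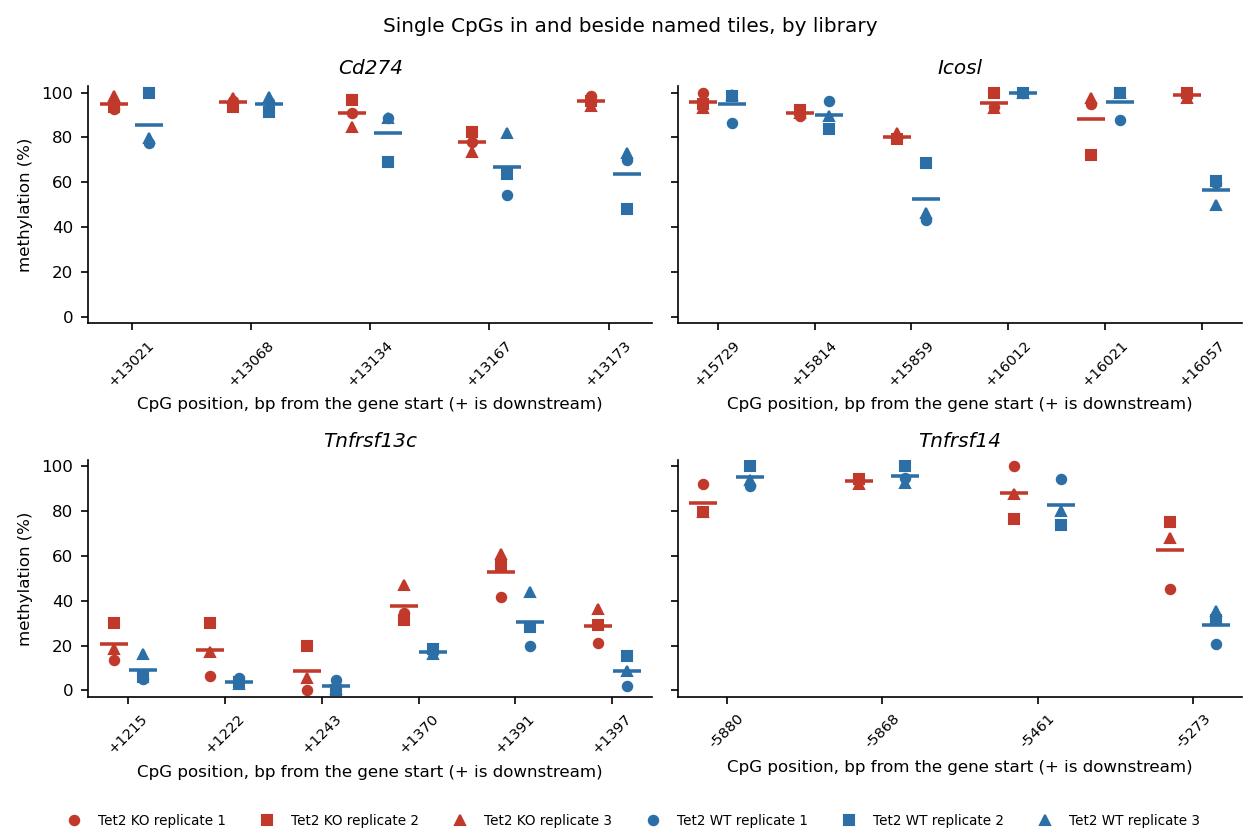
Methylation (%) of single covered CpGs, by library, in the tiles of Cd274, Icosl, Tnfrsf13c and Tnfrsf14 with the largest difference whose groups stood apart, plus the 2 CpGs just outside the Tnfrsf13c tile. The horizontal axis gives the distance from the gene start in bp, in order but not to scale, with positive values downstream, and short lines are means of 3 libraries. The Tnfrsf14 contrast sits in 1 CpG, that of Icosl in 2, while all 5 CpGs shown for Cd274 and all 6 for Tnfrsf13c have the higher mean in Tet2 KO.

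Fas encodes the death receptor that removes B cells after contact with Fas ligand, and germinal centre B cells are known for carrying it. It lies on chromosome 19 from 34290647 to 34327775 on the plus strand, with 11 covered CpGs, all in the span. Its only tested tile, 34291001 to 34292000 at 342 to 1341 bp past the start, read 9.55, 11.8 and 6.40% in Tet2 KO and 9.54, 4.19 and 9.61% in Tet2 WT (7 CpGs). The groups overlapped and the difference of 1.48 points did not pass (adjusted p = 0.911). Its direction turned without Tet2 WT replicate 2 (-0.322 points) and with CpGs weighted equally (-0.0365 points). Of the 6 CpGs of Fas tested singly, 3 had the higher mean in Tet2 KO, with a median difference of -1.17 points. At an unadjusted p under 0.05, 2 of these CpGs were higher, against 6.47% of all positions, and none was called. The 6 covered CpGs within 1 kb of the Fas start all lie in the tile 34291001 to 34292000, so they are not a separate result. They averaged 9.11% ± 2.34 in Tet2 KO and 7.87% ± 3.57 in Tet2 WT (SD, n = 3 each; adjusted p = 0.945). The start itself and the promoter held no covered CpG.

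Cd83 encodes a surface protein of activated B cells, known in the light zone where B cells meet helper T cells. It lies on chromosome 13 from 43785112 to 43803133. The tile with the most CpGs, 18 at 43785001 to 43786000 over one end of the span, averaged 0.0718% in Tet2 KO and 0.0141% in Tet2 WT. A tile inside the gene at 43791001 to 43792000 gave the largest tile difference among the 10 genes, with 73.3, 87.1 and 69.9% in Tet2 KO replicates 1, 2 and 3 and 58.3, 55.6 and 57.0% in Tet2 WT replicates 1, 2 and 3. The groups stood apart, at 76.8% ± 9.12 in Tet2 KO and 57.0% ± 1.38 in Tet2 WT (SD, n = 3 each), but 19.8 points with the wider Tet2 KO spread did not pass (adjusted p = 0.0984). All 6 of its CpGs had the higher mean in Tet2 KO, by 13.1 to 26.7 points, so here the difference was shared by the tile.

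Nearer that low end, the Cd83 position with the smallest p, at 43786936, read 10.9, 19.0 and 22.7% in Tet2 KO against 3.01, 0.840 and 3.87% in Tet2 WT (adjusted p = 0.309). Just beside it, the positions 43787003 and 43787046, chosen after their values were seen, were lower in every Tet2 KO library, with means of 2.09 and 0.952% in Tet2 KO and 10.6 and 10.5% in Tet2 WT (adjusted p = 0.731 and 0.654). The stretch between the unmethylated end and the gene body of Cd83 thus held differences of both signs at these 3 positions, none of which passed.

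The same fit was read for 31 other genes of T-cell help, all matched in the gene table, which had 65 tested tiles. Of these 2 were called, both higher in Tet2 KO, and 0 were called lower, against the 0.685% and 0.00241% of all tiles given above. The first lay near Tnfsf4, which encodes OX40 ligand, a costimulatory ligand for T cells, at chromosome 1, 161396001 to 161397000. It read 30.6, 20.9 and 28.5% in Tet2 KO against 9.91, 11.9 and 15.3% in Tet2 WT, and rose by 14.3 points (11 CpGs; adjusted p = 0.0339). The second lay near Nfkb2, which encodes the p100 precursor of the alternative NF-κB pathway below CD40 and the BAFF receptor, at chromosome 19, 46313001 to 46314000. It read 88.7, 87.7 and 86.3% in Tet2 KO against 66.5, 66.3 and 78.4% in Tet2 WT, and rose by 17.2 points (3 CpGs; adjusted p = 0.0499). The Tnfsf4 call was lost without Tet2 KO replicate 1 or 3 or Tet2 WT replicate 1 or 2 (adjusted p = 0.146, 0.151, 0.114 and 0.0691), where the difference was at least 12.3 points. It was also lost with no filter on the level, an unmoderated dispersion, limma on log2 ratios and CpGs weighted equally (adjusted p = 0.176, 0.463, 0.400 and 0.155). That of Nfkb2 was lost without Tet2 KO replicate 1, 2 or 3 or Tet2 WT replicate 1 or 2 (adjusted p = 0.248, 0.160, 0.157, 0.185 and 0.0847), where the difference was 15.1 to 17.8 points. The same 4 settings also ended the Nfkb2 call (adjusted p = 0.171, 0.445, 0.376 and 0.181).

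Among the 65 tiles, 16 reached an unadjusted p under 0.05, all higher in Tet2 KO, where 10.1% of all tested tiles were higher and 1.39% lower. In 52 the Tet2 KO mean was the higher one, against 64.0% of all tiles, and the median difference was 3.41 points against 1.28 over all tiles. By role, the partners on T cells had 4 tested tiles with 0 at an unadjusted p under 0.05 and a median difference of 0.294 points. The survival and cytokine receptors of B cells (Tnfrsf13b, Tnfrsf17, Il4ra and Il21r) had 16, of which 6 reached it, with a median of 4.70 points. The signalling genes below CD40 and the BAFF receptor had 37, of which 8 reached it, with a median of 3.86 points. The other costimulatory ligands had 4, of which 1 reached it, the SLAM family had 2, of which 1 did, and the death signalling genes below Fas had 2, of which 0 did.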

How the data were processed

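Per the file headers, each deposited line holds 1 CpG position and strand, its coverage (a count of reads) and the percent called C or T. Reads were aligned with Bismark to GRCm38, per the submitters' processing notes, and its version, trimming and quality filters were not given in the sources used here. No position had a coverage count under 10. Methylated and unmethylated read counts were computed from coverage and percent, and were whole at 100% of positions within the 3-decimal rounding of the percent values. PCR copies were not told apart, so limits from read counts cover counting error alone. How the replicates were obtained is not in the labels, so the spread between these 6 libraries may be technical. A p-value sets a difference against that spread, moderated over all tested features. The spread shared over the genome had a weight of 87.4 degrees of freedom for CpG positions and 9.35 for tiles. The p-value of a single CpG thus rests mostly on the shared spread and little on its own.

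Gene spans came from the RefSeq table for GRCm38.p6, and strands and gene starts from RefSeq promoters, in which 7 of the 10 genes were matched. Reads were added over 1 kb tiles (at least 3 CpGs), windows of 10 kb around each gene and gene spans (at least 5 CpGs), and 1 kb on either side of gene starts (at least 3 CpGs). A level is the methylated share of the added reads, and group means are unweighted over 3 libraries. Each feature with a mean of 5% to 95% was tested across the genome with a quasi-binomial logistic model of KO against WT, with no covariates. Its Pearson dispersion was moderated by limma's empirical Bayes method, coded in Python 3.11.15 with numpy 2.4.6 and scipy 1.17.1. It was tested on simulated data and against limma 3.58.1 in R 4.3.3. A call needed a Benjamini-Hochberg adjusted p under 0.05 and 10 points between means. For 3 libraries against 3, an exact permutation test could not go below p = 0.1 and was not used.

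All 10 genes are named whatever their test. For each, the text names called features, else the tile with the smallest p, the tile with the largest difference whose groups were apart, the tile with the most CpGs, and, for genes with a tile at an unadjusted p under 0.05, the CpG with the smallest p. Members and gene lists were chosen with earlier results of these data known. Replicate numbers did not mark shared animals or batches in the labels. Alternatives were a coverage of 20, each library left out, a replicate block, no level filter, unmoderated dispersion, limma on log2 ratios with an offset of 1 read, equal CpG weights, removal of CpGs above the 99.9th percentile of coverage, no minimum difference, tiles moved by 500 bp, tiles of at least 5 CpGs, no flank and added strands. One of the B-cell markers is not reported here.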

Additional observations from a re-analysis of the deposited data

How the results depend on the processing

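The calls were few and did not survive every setting. Called tiles near the 10 genes numbered 0 under each alternative run except that they ranged from 0 to 1 with each library left out, the 1 being the Cd274 tile without WT replicate 3. Called CpGs, 2 as reported, ranged from 0 to 3 with each library left out. They numbered 1 without the level filter, which was neither of the 2 reported, and 1 with no flank. With an unmoderated dispersion and with limma on log2 ratios they numbered 0. Tiles at an unadjusted p under 0.05, 8 as reported, numbered 4 of 12 tested with at least 5 CpGs per tile and 4 of 14 with no flank, and tiles with every KO library above every WT library, 12 as reported, numbered 7 of 12 and 4 of 14; 30 tiles were tested as reported. CpGs at an unadjusted p under 0.05 were 22 of 168 tested as reported, and 54 of 542 without the level filter. They numbered 14 with no flank and 14 to 24 with each library left out. Over the whole genome 571 tiles were called, against 0 with an unmoderated dispersion, 0 with limma on log2 ratios, 0 with CpGs weighted equally, 8 without the level filter and 345 with at least 5 CpGs, and 124 to 1164 with 1 library left out. Single CpGs called genome-wide numbered 1544, against 35 with an unmoderated dispersion, 0 with limma on log2 ratios, 0 with the replicate block, 207 without the level filter and 545 to 3667 with 1 library left out.

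With the replicate number as a block, called CpGs near the genes numbered 0 and called tiles 0, while 892 tiles were called genome-wide. With this block the Nfkb2 tile had an adjusted p of 0.0515 and the Tnfsf4 tile 0.0166. The deviations of same-numbered KO and WT libraries correlated at r = 0.0229, 0.00220 and 0.00371 over 83114 tiles. For differently numbered libraries r was -0.0203 to 0.0150. The methylated percent on the mitochondrial chromosome was 0.258, 0.408 and 0.294 in KO replicates 1, 2 and 3. In WT replicates 1, 2 and 3 it was 0.260, 0.410 and 0.241. Whether same-numbered samples shared a preparation was not tested.

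Among the named features, directions turned for these differences. With each library left out, the difference ranged from -2.49 to 2.62 points for the Cd40 span and from -1.99 to 0.916 for the Cd40 window. For the Cd40 tile with the most CpGs it ranged from -5.36 to 0.941, and for the Cd80 window from -0.758 to 0.543. For the CpGs within 1 kb of the Fas start it ranged from -0.824 to 2.48, and for the Fas tile from -0.322 to 2.90. With CpGs weighted equally these were 1.57, 1.06, 0.478, 2.05, -0.488 and -0.0365 points, and the Cd80 window gave 0.185 at a coverage of 20. The cause was not tested. A coverage of 20 left 27 tested tiles near the genes.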
